A study of Arabidopsis thaliana with 48 samples.

Results

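Roots of Arabidopsis thaliana seedlings kept for 1 h on medium with the auxin indole-3-acetic acid (IAA) were compared with roots kept for 1 h on control medium. The comparison used every array that the labels name IAA 1h (3 arrays) or control 1h (3 arrays), which made 6 of the 48 arrays of the time course. The seedlings were 6 days old, had grown in continuous light on a nylon screen over sucrose medium, and were carried on that screen to fresh medium with 1 µM IAA or to control medium. Both groups therefore share the transfer, and they differ by label only in IAA. The labels name no genotype, accession or mutation, and they do not say whether the 3 arrays of a group came from separate plates of seedlings. The p-values therefore measure a spread between arrays within a group, pooled over all 16 groups of the series. Whole roots were extracted, and in such bulk samples fewer cells of a type and less RNA per cell cannot be told apart. The other times were 0 h (under 5 minutes on the medium), 0.5, 2, 4, 8, 12 and 24 h, each with 3 arrays on IAA and 3 on control medium.

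Auxin acts in the nucleus by joining a TIR1/AFB receptor to an Aux/IAA protein, which is then degraded. The Aux/IAA proteins hold back the auxin response factors (ARFs), so their loss frees these transcription factors to switch on early target genes. Known early targets include the Aux/IAA genes themselves, the GH3 genes, whose enzymes join IAA to amino acids, and the LBD genes of lateral root initiation. In roots, auxin slows elongation and starts new lateral roots.

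Each array gave a log2 intensity for 22746 probe sets after the Affymetrix control probe sets were set aside. Exactly 1 gene stands beside 13513 of these (59.4%) in the array's annotation, and 8730 are absent from it, which leaves 13356 genes that can be named. The means of the 48 arrays lay between 7.69 and 7.7 and their medians between 7.46 and 7.64. IAA 1 h replicate 3 was, of all 48 arrays, the one farthest from the mean of its group (root mean square deviation of 0.304 log2 units). The array next to it in this order, control 0 h replicate 3, stood at 0.298. Of the marker genes that could be named, the root genes EXPA7, an expansin of root hairs, and GSO1, a receptor kinase needed for the Casparian strip, averaged 9.59 and 8.98 on IAA and 8.69 and 8.93 on control medium. The other of the 3 measured root markers, CR4, differed by 0.03 log2 units between the groups. The leaf marker FMA, a factor of guard cell identity, averaged 5.50 on IAA and 5.61 on control medium, under the lower quartile of the arrays. The light-harvesting gene LHCB4.1 averaged 7.44 on IAA and 8.06 on control medium, so 1 of the 2 measured leaf markers was above that quartile.

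After 1 h, 304 probe sets were higher on IAA and 138 lower (limma, Benjamini-Hochberg adjusted p under 0.05 over all 22746). These are 1.34% and 0.607% of all probe sets tested, 1.94% together, and the changes were relative to a median of all probe sets at 0.008 log2 units. Rises were also the larger changes. Their median was 0.96 log2 units (1.95-fold), while that of the falls was -0.79 (1.72-fold). A fold of 2 or more was reached by 146 rises and 40 falls, and a fold of 4 or more by 22 rises and 1 fall. All 3 IAA arrays lay above all 3 control arrays for 293 of the 304 rises and below them for 136 of the 138 falls, beside 6.45% of all probe sets above and 5.4% below, 11.9% together. The calls were spread over all but the dimmest probe sets. In 4 equal classes of rising mean level over the 6 arrays of 1 h, 0.229%, 2.06%, 3.01% and 2.48% of probe sets were called. In the brightest class 115 rose and 26 fell. Among named genes 138 rose and 81 fell, 1.03% and 0.606% of 13356 (1.64% together). Of these 219 genes, 36 carry a symbol in the tables used here and 183 are known there by locus alone. Without IAA replicate 1 the count was 256, against 442 with all arrays. Without replicate 1 in all 16 groups of the series it was 93, with 85 rises and 8 falls. Without replicate 2 or 3 in all groups it was 299 and 477. Each of these fits had fewer arrays for the spread, and the cause of the low count without replicate 1 was not tested.

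**Figure D1:**
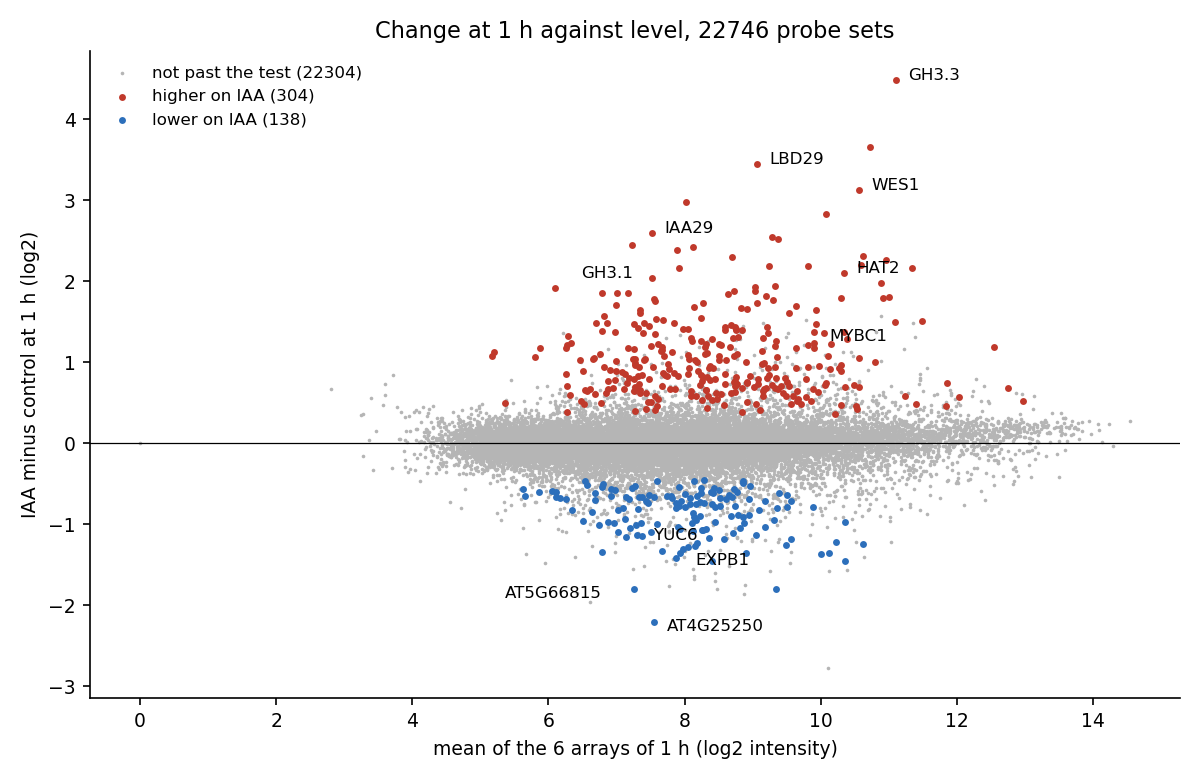
Difference between IAA and control at 1 h (vertical axis, log2) against the mean of the 6 arrays of 1 h (horizontal axis, log2 intensity), 1 point for each of 22746 probe sets. Red points are the 304 probe sets higher on IAA, blue points the 138 lower on IAA, and grey points did not pass the test; the rises reach 4.49 at GH3.3 and the falls -2.21 at AT4G25250.

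The genes that inactivate IAA by conjugation held the largest rise. Of 6 measured members of the conjugation and oxidation list, GH3.3, WES1 (GH3.5) and GH3.1 rose, 0 fell and 3 did not pass. Of all named genes, 1.03% rose and 0.606% fell. The list's median was 0.989 log2 units, where the median of all named genes was 0.007. GH3.3 stood at 14.07, 13.35 and 12.60 on IAA and at 10.94, 7.78 and 7.85 on control medium (log2 intensity, replicates 1 to 3). The groups did not overlap, but control replicate 1 lay far above the other 2 controls. The difference was 4.49 ± 0.555 log2 units (SE, n = 3 per group), a 22.4-fold rise with limma adjusted p = 1.17e-06. In the other 23 control arrays of the series GH3.3 ran from 6.91 to 9.57, with a median of 7.75, so control 1 h replicate 1 was the highest control array of all 24. In the 21 IAA arrays of 0.5 to 24 h it ran from 10.55 to 14.11, so that this control array lay inside the range of treated roots for this gene. WES1, an enzyme of the same family, was at 12.47, 12.22 and 11.67 on IAA and at 9.61, 8.86 and 8.50 on control medium, and rose 8.77-fold (3.13 ± 0.235, 1.24e-11). GH3.1 was at 9.07, 8.59 and 7.95 on IAA and at 6.46, 6.60 and 6.41 on control medium, and rose 4.13-fold (2.05 ± 0.32, adjusted p = 6.46e-05). For all 3 genes replicate 1 was the highest and replicate 3 the lowest of the IAA arrays. The members that did not pass were GH3.17, which makes the glutamate conjugate of IAA (-0.67 ± 0.254, adjusted p = 0.234), GH3.9 (-0.11) and the IAA glucosyltransferase UGT84B1 (-0.07). GH3.17 was at 8.68, 9.02 and 9.33 on IAA and at 9.21, 10.33 and 9.50 on control medium, so its groups overlapped. The call of GH3.1 was lost without replicate 1 in all groups (adjusted p = 0.138). That of GH3.3 was lost when the spread came from the 6 arrays of 1 h alone (0.0906). Without control replicate 1 the difference of GH3.3 was 5.52 log2 units, a 46.0-fold rise (1.37e-09).

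The Aux/IAA genes, whose products are the repressors of the response, rose in 4 of 7 measured members, and 0 fell. Of all named genes, 1.03% rose and 0.606% fell. IAA29 was at 9.51, 8.95 and 8.01 on IAA and at 6.32, 6.46 and 5.91 on control medium. Every IAA array was above every control array, and the control mean of 6.23 lay under the lower quartile of the arrays. The rise was 6.03-fold (2.59 ± 0.361, limma adjusted p = 8.99e-06). IAA30 was at 8.57, 7.97 and 8.07 on IAA and at 7.47, 6.38 and 6.39 on control medium, and rose 2.74-fold (1.46 ± 0.225, 5.2e-05). Here too control replicate 1 was the highest of its group. IAA20, which like IAA30 and IAA33 lacks the usual degradation motif of the family, was at 7.26, 7.19 and 7.16 on IAA and at 6.64, 6.74 and 6.24 on control medium, a rise of 0.67 ± 0.131 (0.00163). IAA33 was at 6.76, 6.53 and 6.93 on IAA and at 6.13, 6.33 and 6.18 on control medium, where its mean also lay under the lower quartile, and was 1.44-fold higher (0.53 ± 0.142, 0.0382). IAA18 (0.28), IAA31 (0.22) and IAA34 (-0.04) did not pass. The list's median was 0.527. The call of IAA33 was lost without IAA replicate 1 (0.13), IAA replicate 3 (0.207), control replicate 1 (0.189) or control replicate 3 (0.136). Without replicate 1 in all groups, those of IAA33 (0.862) and IAA20 (0.128) were lost. With the spread of the 6 arrays alone, IAA30 (0.154), IAA20 (0.194) and IAA33 (0.286) did not pass. With the difference at 0 h subtracted, which brings in the 0 h arrays and gives a larger SE, IAA20 (0.209) and IAA33 (0.582) did not.

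The transcript level of 1 gene of IAA synthesis moved the other way. YUC6, a flavin monooxygenase that makes IAA from indole-3-pyruvate, was at 6.97, 6.87 and 6.76 on IAA and at 7.86, 7.92 and 7.78 on control medium. The 3 arrays of each group lay close together and the groups were far apart for that spread. YUC6 was 1.98-fold lower (-0.99 ± 0.103, limma adjusted p = 2.92e-08), and the call was kept under every alternative fit. The other 3 measured members of the biosynthesis list did not pass, where 0.606% of all named genes fell. They were YUC2 (-0.24), with all 3 IAA arrays below all 3 control arrays, and YUC4 (-0.09) and YUC11 (0.02), both under the lower quartile of the arrays in both groups. Of the auxin transport list only WAG2, a kinase that acts on PIN efflux carriers, was measured (0.53 ± 0.321, adjusted p = 0.67). Auxin receptors, ARFs and SAUR genes had 0 measured members.

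Factors of lateral root initiation were among the rises, which made up 1.03% of all named genes. Of 4 measured members of the lateral root list, LBD29, LBD16 and PUCHI rose and CR4 (ACR4), a receptor kinase of the lateral root founder cells, did not pass (0.03 ± 0.088, adjusted p = 0.993). LBD29, a lateral organ boundaries domain factor and a direct ARF target, was at 11.09, 10.81 and 10.45 on IAA and at 7.81, 7.15 and 7.03 on control medium. The groups were widely apart even at their nearest arrays, and the rise was 10.9-fold (3.45 ± 0.25, limma adjusted p = 1.24e-11). Its control replicate 1 was again the highest of all 24 control arrays, of which the others ran from 6.45 to 7.73. LBD16, which acts with LBD29 at the first division of founder cells, was at 10.16, 9.62 and 9.999 on IAA and at 8.36, 8.19 and 8.04 on control medium, and rose 3.33-fold (1.73 ± 0.241, 8.98e-06). PUCHI, an AP2/ERF factor that shapes the young primordium, was at 8.71, 8.07 and 7.93 on IAA and at 7.44, 6.51 and 6.72 on control medium, and rose 2.54-fold (1.35 ± 0.266, 0.00171). Control replicate 1 came nearest to the IAA arrays. The call of PUCHI was lost without replicate 1 (0.089) or replicate 2 (0.0541) in all groups. It was also lost with the spread of the 6 arrays alone (0.154), and with the difference at 0 h subtracted (0.159).

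HAT2, a homeodomain-leucine zipper factor known as an early auxin-induced gene, was the one measured member of its list. It was at 11.48, 11.20 and 11.51 on IAA and at 9.0, 9.59 and 9.30 on control medium, and rose 4.28-fold (2.1 ± 0.243, limma adjusted p = 2.75e-07). All 3 IAA arrays lay well above the highest control array. MYBC1, a MYB-like factor described in freezing tolerance and taken up after its values were seen, was at 10.71, 10.51 and 10.80 on IAA and at 8.88, 9.49 and 9.24 on control medium. It rose 2.77-fold (1.47 ± 0.142, 5.43e-09) with no overlap, and kept its call under every alternative fit. CLE44, which encodes the peptide that keeps vascular stem cells dividing, was at 10.33, 9.38 and 8.16 on IAA and at 8.91, 7.56 and 7.20 on control medium. Its groups overlapped, although within each replicate number IAA was the higher array, and the rise was 2.64-fold (1.40 ± 0.372, 0.035). The call of CLE44 was lost without IAA replicate 1 (0.391) or 2 (0.104), or control replicate 2 (0.145) or 3 (0.289), and without replicate 1 in all groups (0.277). It was also lost with the spread of the 6 arrays alone (0.686), and with the difference at 0 h subtracted (0.297). CLE41, which encodes the same peptide, was at 8.15, 8.20 and 7.51 on IAA and at 8.65, 8.52 and 8.44 on control medium. It did not pass (-0.58 ± 0.168, adjusted p = 0.0631), but it did with the replicate number as a block (0.0126). CLE44 was the only one of 15 measured members of the peptide list past the test in the unblocked fit, beside 1.64% of all named genes. The list's median was -0.089.

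**Figure D2:**
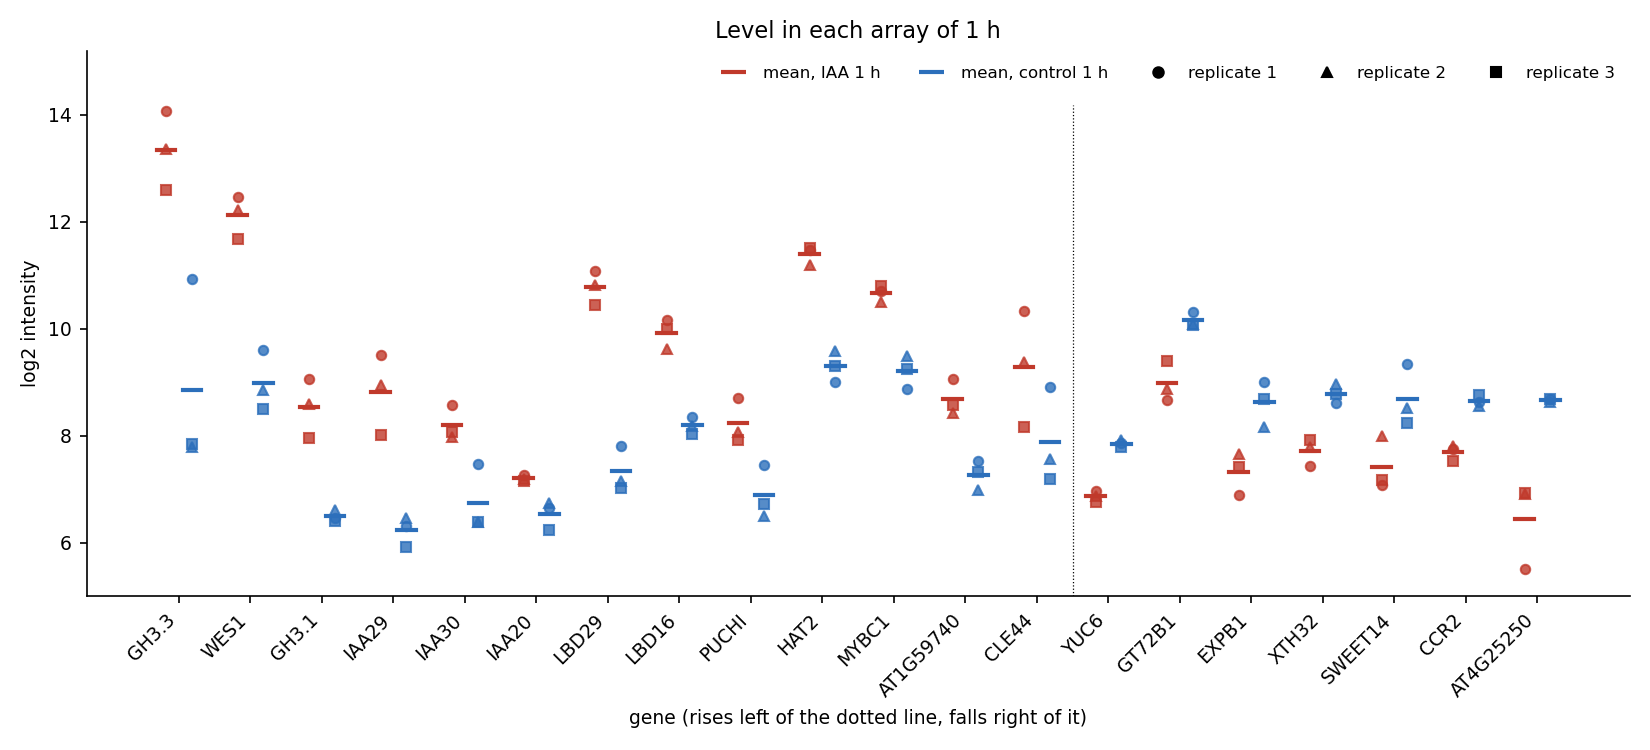
Log2 intensity of 20 genes in each of the 6 arrays of 1 h, IAA (red) left of control (blue) for each gene, with circles, triangles and squares for replicates 1, 2 and 3 and a bar for the mean. The 13 genes left of the dotted line rose and the 7 right of it fell, and the groups overlap in CLE44 alone; control replicate 1 of GH3.3 stands at 10.94, apart from the other controls at 7.78 and 7.85.

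The 2 genes of the wall loosening list that passed were falls. Of 29 measured expansins and xyloglucan endotransglucosylase/hydrolases (XTHs), EXPB1 and XTH32 fell and 0 rose, beside 0.606% and 1.03% of all named genes. The list's median was -0.121, and 13 of its members lay above 0. EXPB1, a beta-expansin, was at 6.89, 7.66 and 7.42 on IAA and at 9.01, 8.17 and 8.70 on control medium, 2.47-fold lower (-1.30 ± 0.319, limma adjusted p = 0.0178). XTH32 was at 7.44, 7.79 and 7.92 on IAA and at 8.60, 8.97 and 8.77 on control medium, 2.09-fold lower (-1.06 ± 0.187, 0.000344). In both genes the groups did not overlap and IAA replicate 1 was the lowest array. Members that did not pass ran from -0.88 in XTH21 (adjusted p = 0.159) to 0.91 in XTH18 (0.106). EXPA7 and EXPA18, expansins of root hairs, stood at 0.90 ± 0.315 (0.172) and 0.60 ± 0.359 (0.668) and did not pass, although their groups did not overlap. The call of EXPB1 was lost without IAA replicate 1 (0.164), control replicate 1 (0.162) or control replicate 3 (0.0751). Without replicate 1 in all groups, EXPB1 (0.974) and XTH32 (0.0972) were lost, and both were lost with the spread of the 6 arrays alone (0.126 and 0.0592). EXPB1 was also lost with the difference at 0 h subtracted (0.0902).

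GT72B1, of the UGT glycosyltransferase list, and CCR2, which is in no list and was taken up after its values were seen, were lower on IAA. GT72B1 (UGT72B1), a glucosyltransferase of monolignols and some foreign compounds, was at 8.66, 8.88 and 9.39 on IAA and at 10.31, 10.09 and 10.07 on control medium, 2.27-fold lower (-1.18 ± 0.18, limma adjusted p = 3.92e-05). CCR2, a cinnamoyl-CoA reductase of lignin synthesis, was at 7.76, 7.81 and 7.53 on IAA and at 8.64, 8.55 and 8.75 on control medium, 1.93-fold lower (-0.95 ± 0.161, 0.000223). Neither gene had overlapping groups. Both calls were lost without replicate 1 in all groups (0.195 and 0.119), and that of GT72B1 with the spread of the 6 arrays alone (0.0697). Of 51 measured members of the UGT glycosyltransferase list, GT72B1 fell, UGT76E2 rose and 49 did not pass, with a median of -0.04. Of all named genes, 0.606% fell and 1.03% rose. UGT76E2 was at 7.72, 7.65 and 8.20 on IAA and at 6.89, 7.73 and 7.21 on control medium, with overlapping groups (0.58 ± 0.156, 0.0382). Its call was lost without IAA replicate 3 (0.302), control replicate 1 (0.461), control replicate 3 (0.152) or IAA replicate 1 (0.0566), and without replicate 1 in all groups (0.789). It was also lost with arrays centred on their medians (0.0543), with the spread of the 6 arrays alone (0.654), and with the difference at 0 h subtracted (0.325). UGT72E2, a coniferyl alcohol glucosyltransferase, was at 10.26, 10.44 and 9.16 on IAA and at 11.24, 11.18 and 10.64 on control medium. It did not pass unblocked (-1.07 ± 0.32, 0.0788) and passed with the replicate block (0.0162), as did UGT71C2 (0.61, 0.115 unblocked and 0.0448 blocked).

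Like MYBC1 and CCR2, the remaining genes with a symbol were taken up because they passed and carry one, that is, after their values were seen. Among the rises, AT1G59740, listed as the nitrate and peptide transporter family gene NPF4.3, was at 9.07, 8.42 and 8.58 on IAA and at 7.53, 6.98 and 7.32 on control medium (1.42 ± 0.244, limma adjusted p = 0.000273), and its call was kept under every alternative fit. AT5G61590, listed as DEWAX, an AP2/ERF repressor of wax synthesis, was at 10.34, 10.16 and 10.04 on IAA and at 7.57, 9.34 and 8.30 on control medium. Its control arrays spread widely (SD 0.89), and its call (1.77 ± 0.471, 0.0344) was lost without IAA replicate 1, 2 or 3 (0.139, 0.0846 and 0.0673) or control replicate 1 or 3 (0.34 and 0.122). ARL (ARGOS-like), a gene of cell expansion, rose by 1.18 ± 0.258 (0.0056) and SETH6 by 1.13 ± 0.184 (0.000117). TBL21, of a family that acetylates wall polysaccharides, rose by 0.84 ± 0.165 (0.00156) and BRL1, a brassinosteroid receptor of vascular cells, by 0.79 ± 0.186 (0.0119). ROXY1, a glutaredoxin, rose by 0.71 ± 0.146 (0.00296), bZIP44 by 0.74 ± 0.193 (0.0287), and SIM, an inhibitor of cyclin-dependent kinases in endoreduplicating cells, by 0.64 ± 0.154 (0.0149). FOLB1, an enzyme of folate synthesis, rose by 0.67 ± 0.184 (0.0471), and SAMDC, which supplies polyamine synthesis, by 0.52 ± 0.144 (0.0499), at the edge of the threshold. The control mean of FOLB1 (6.21) lay under the lower quartile of the arrays. Every gene of this group had IAA arrays all above its control arrays, as did 293 of the 304 rises and 6.45% of all probe sets. The genes were taken up because they passed on these same arrays, so this is a description. Leaving out IAA replicate 1 ended the calls of ARL (0.108), BRL1 (0.199), ROXY1 (0.07), bZIP44 (0.247), SIM (0.0791), FOLB1 (0.141) and SAMDC (0.223). Leaving out control replicate 1 ended those of bZIP44 (0.264), FOLB1 (0.228) and SAMDC (0.433), control replicate 2 those of SIM (0.0614), FOLB1 (0.0714) and SAMDC (0.0866), and control replicate 3 those of ARL (0.0532), BRL1 (0.07), bZIP44 (0.0545) and FOLB1 (0.108). FOLB1 was also lost without IAA replicate 3 (0.212) and SAMDC without IAA replicate 2 (0.104) or 3 (0.0603), after quantile normalization (0.197), with arrays centred on their medians (0.054) and with an intensity trend and robust estimation (0.0544). TBL21 was lost without replicate 1 (0.128) or 3 (0.114) in all groups. Without replicate 1 in all groups, ARL (0.283), BRL1 (0.594), ROXY1 (0.441), SIM (0.596), FOLB1 (0.788), bZIP44, SAMDC and AT5G61590 were lost too. With the spread of the 6 arrays alone, every gene of this group but AT1G59740 was lost, from SETH6 (0.0691) to SAMDC (0.373). With the difference at 0 h subtracted, AT5G61590 (0.27), ARL (0.2), BRL1 (0.225), ROXY1 (0.128), bZIP44 (0.395), SIM (0.557), FOLB1 (0.466) and SAMDC (0.365) did not pass.

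Among the falls with a symbol, SWEET14, a sugar transporter, was at 7.09, 7.99 and 7.17 on IAA and at 9.33, 8.51 and 8.24 on control medium, 2.43-fold lower (-1.28 ± 0.331, limma adjusted p = 0.0275). ACT11, an actin, was at 7.31, 7.88 and 7.95 on IAA and at 8.41, 8.30 and 8.67 on control medium (-0.74 ± 0.197, 0.0346). In neither gene did the groups overlap. ZCF37 fell by 1.04 ± 0.288 on the log2 scale (0.0487), P1R1 by 0.68 ± 0.19 (0.0487) and IQD24, of a family that binds calmodulin, by 0.60 ± 0.16 (0.0344). CPUORF47, which carries a conserved upstream reading frame, fell by 0.50 ± 0.14 (0.0482). IQD24 lay under the lower quartile in both groups and P1R1 on IAA. None of these 6 calls held without IAA replicate 1 (0.18 for SWEET14, 0.311 for ACT11, 0.174 for ZCF37, 0.0666 for P1R1, 0.312 for IQD24 and 0.136 for CPUORF47). Without control replicate 1 they stood at 0.322, 0.0916, 0.499, 0.276, 0.19 and 0.0507. All 6 were lost without replicate 1 in all groups, among them SWEET14 (0.861), P1R1 (0.613) and CPUORF47 (0.371). Without control replicate 3, ACT11 (0.195), ZCF37 (0.0768), P1R1 (0.118), IQD24 (0.114) and CPUORF47 (0.148) were lost, and without IAA replicate 3, SWEET14 (0.124), ZCF37 (0.191), P1R1 (0.215) and CPUORF47 (0.297). P1R1 and CPUORF47 were also lost without control replicate 2 (0.0525 and 0.177), and P1R1 without IAA replicate 2 (0.0943). After quantile normalization P1R1 (0.0617), IQD24 (0.0867) and CPUORF47 (0.0769) did not pass, and with arrays centred on their medians ZCF37 (0.0571) and CPUORF47 (0.11) did not. ZCF37 was also lost with an intensity trend and robust estimation (0.0527), and all 6 with the spread of the 6 arrays alone, from P1R1 (0.158) to CPUORF47 (0.426). All 6 were also lost with the difference at 0 h subtracted, at 0.172 for SWEET14, 0.209 for ACT11, 0.653 for ZCF37, 0.457 for P1R1, 0.456 for IQD24 and 0.128 for CPUORF47. In this order their differences were then -1.54, -0.87, -0.89, -0.685, -0.58 and -0.69, and the SE was larger in each. The SE of SWEET14 was 0.47 with the subtraction and 0.331 without it.

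Among named genes, many of the larger changes belong to genes that the tables used here know by locus alone, and no role is given for these genes. The locus genes with the largest rises were AT4G21870 (2.31 ± 0.508, limma adjusted p = 0.00618), AT1G60010 (2.21 ± 0.346, 6.46e-05), AT1G64405 (2.19 ± 0.324, 2.69e-05) and AT3G26760 (2.19 ± 0.177, 9.44e-11). AT3G26760 was at 11.30, 10.70 and 10.73 on IAA and at 8.84, 8.69 and 8.65 on control medium, the tightest of these. It kept its call under every alternative fit. AT4G37295 (1.88 ± 0.281), AT4G17350 (1.88 ± 0.164), AT5G47440 (1.85 ± 0.205) and AT5G62280 (1.82 ± 0.203) were each 3.52-fold to 3.69-fold higher. The control mean of AT5G47440 (6.25) lay under the lower quartile of the arrays. AT1G62770 averaged 10.003 ± 1.27 on IAA and 8.07 ± 0.27 on control medium (SD, n = 3), and rose by 1.93 ± 0.491 (0.024). Its IAA arrays stood at 11.02, 10.41 and 8.58, and its call was lost without IAA replicate 1 (0.255), IAA replicate 2 (0.117), control replicate 2 (0.0773) or control replicate 3 (0.0957). Without IAA replicate 3 its difference was 2.64 (0.000883). The call of AT4G21870 was lost without IAA replicate 1 (0.0986) or control replicate 1 (0.0638). Of the falls, AT4G25250 was at 5.51, 6.91 and 6.94 on IAA and at 8.68, 8.63 and 8.68 on control medium. The control arrays were nearly equal and IAA replicate 1 was the lowest array, and the gene was 4.63-fold lower (-2.21 ± 0.417, 0.000987). AT5G66815 was at 5.97, 6.19 and 6.92 on IAA and at 8.31, 8.06 and 8.13 on control medium, 3.49-fold lower (-1.80 ± 0.245, 6.4e-06), a call kept under every alternative fit. AT1G05060 was at 8.91, 8.69 and 7.73 on IAA and at 10.99, 9.25 and 10.48 on control medium (-1.80 ± 0.457, 0.0242). Its call was lost without IAA replicate 3 (0.176), control replicate 1 (0.257) or control replicate 3 (0.119). The falls of AT1G03660 (-1.46 ± 0.369), AT1G05340 (-1.46 ± 0.387) and AT5G40690 (-1.35 ± 0.373) were likewise lost without control replicate 1 (0.279, 0.276 and 0.359), control replicate 3 (0.112, 0.136 and 0.168) or IAA replicate 1 (0.111, 0.197 and 0.252). AT5G40690 was also lost without IAA replicate 2 (0.0578) or 3 (0.0804), AT1G03660 without IAA replicate 3 (0.078) and AT1G05340 without IAA replicate 2 (0.12). Those of AT2G44300 (-1.35 ± 0.181, 4.71e-06) and AT2G40460 (-1.32 ± 0.201, 3.92e-05) held without any single array. Without replicate 1 in all groups, AT4G25250 (0.368), AT1G60010 (0.0916) and AT1G64405 (0.0854) were lost. So were AT1G62770 (0.84), AT4G21870 (0.698), AT1G05060 (0.662), AT1G03660, AT1G05340 and AT5G40690. With the spread of the 6 arrays alone, AT4G21870 (0.0681), AT1G62770 (0.326), AT4G37295 (0.108), AT4G25250 (0.064), AT1G05060 (0.267), AT1G03660 (0.217), AT1G05340 (0.185), AT5G40690 (0.215) and AT2G44300 (0.0581) did not pass, and AT5G40690 did not with an intensity trend and robust estimation (0.0566). With the difference at 0 h subtracted, AT4G21870 (0.11), AT1G62770 (0.45), AT1G05060 (0.321), AT1G03660 (0.187), AT1G05340 (0.493) and AT5G40690 (0.317) did not pass.

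Several lists gave 0 calls, where 1.64% of all named genes were called, so that in lists this short nothing can be read from a count of 0. All 6 measured cytokinin genes, each a response regulator, lay between -0.19 and 0.09 log2 units, under the lower quartile of the arrays in both groups. All 4 cell division genes lay between -0.002 and 0.125, with the aurora kinases AUR1, AUR2 and AUR3 and the replication helicase subunit PRL among them. The 24 cytochrome P450s (median -0.081), 14 glutathione transferases (median -0.073) and 4 pectin enzymes (median -0.034) had 0 members past the test. Members were taken by a chosen locus or a symbol, so called genes of these families known by locus alone can be missing from the lists. The 7 WRKY factors had a median of 0.193, and WRKY22 stood out in size (1.37 ± 0.572, limma adjusted p = 0.323). WRKY22 was at 9.77, 9.69 and 9.02 on IAA and at 7.58, 8.47 and 8.31 on control medium, without overlap. It passed when replicate 3 was left out in all groups (0.00208). Of 28 factors with numbered MYB, bHLH, NAC or bZIP symbols, bZIP44 alone passed; MYBC1, called above, is not in this list because its symbol carries no number directly after MYB. BZIP60, a factor of the unfolded protein response, was at 9.68, 9.59 and 9.45 on IAA and at 10.85, 10.05 and 10.48 on control medium, and did not pass unblocked but did with the replicate block (-0.88, 0.0663 unblocked and 0.0137 blocked). The same held for AT4G38900 of this list (0.63, 0.0983 unblocked and 0.00576 blocked). The ERF and DREB list, chosen by symbol, holds neither PUCHI nor AT5G61590, the AP2/ERF genes called above. Of its 2 measured members, tny, an AP2 factor, lay at 0.74 ± 0.266 (0.197) with overlapping groups. It passed without control replicate 2 (0.0371). The single measured members of the ethylene list (EIN3, 0.27), the touch list (STZ, -0.10), the hypoxia list (AT3G10040, 0.03) and the endodermal list (GSO1, 0.05) did not pass. The reference genes TUB6, PEX4 and GAPC2 lay at -0.01, 0.10 and 0.11. LHCB4.1 was at 7.39, 7.53 and 7.42 on IAA and at 8.03, 8.03 and 8.13 on control medium. Its groups did not overlap, but with the pooled spread it did not pass (-0.62 ± 0.203, 0.132). FMA, the other measured leaf marker, lay at -0.11. Whether leaf tissue had a part in any result was not tested. Over all lists, 215 genes were measured, of which 14 rose (6.51%) and 4 fell (1.86%), beside 1.03% and 0.606% of all named genes. The lists were chosen with earlier results of these data known, so these shares are a description.

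**Figure D3:**
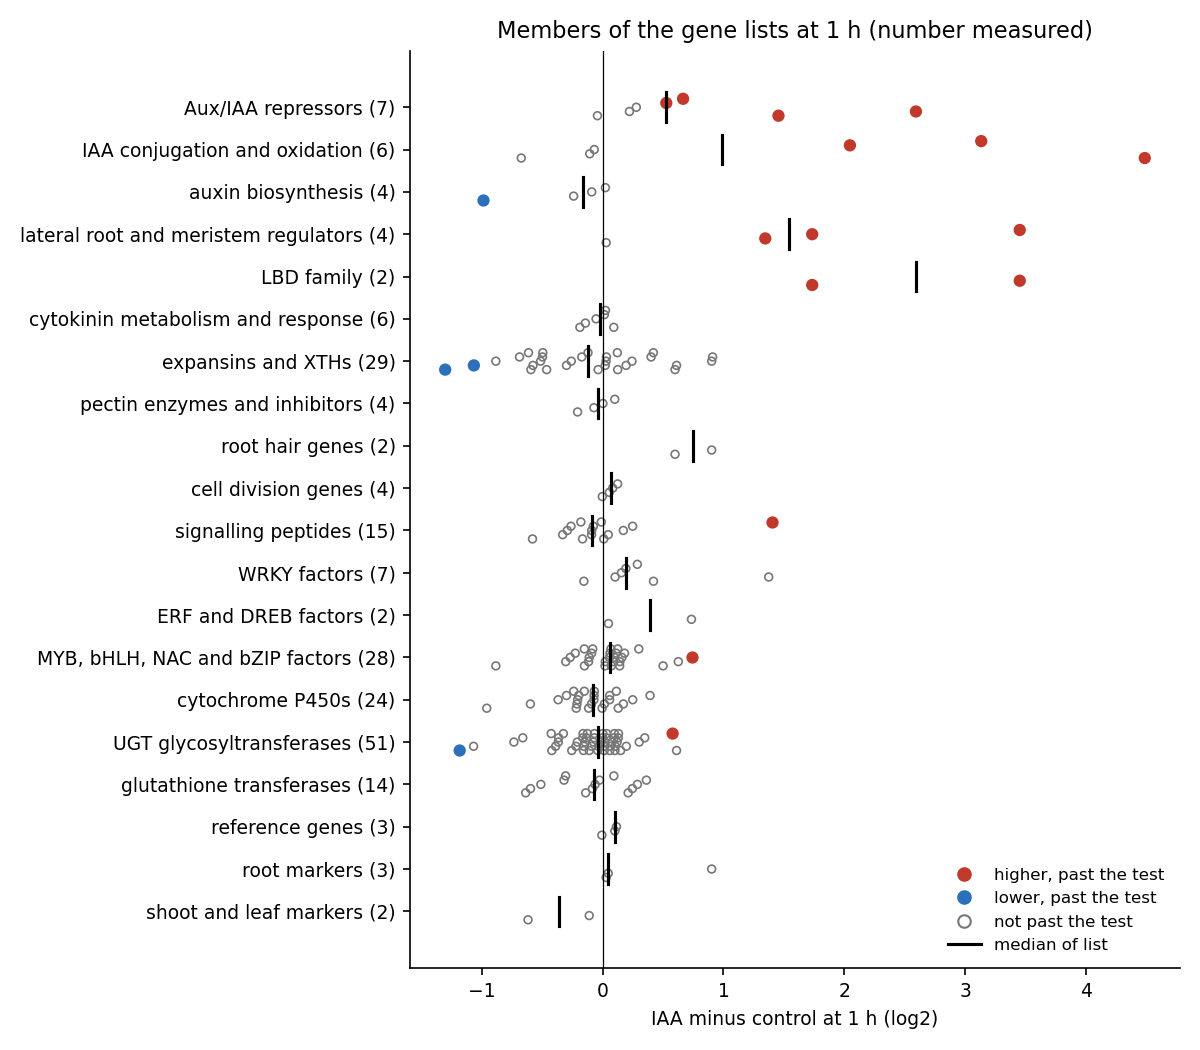
Difference between IAA and control at 1 h (horizontal axis, log2) for every measured member of the lists with at least 2 measured genes, with the number measured in brackets. Filled red and blue points passed the test as higher and lower, open points did not, and the black bars are list medians, which run from -0.364 in the 2 leaf markers to 2.593 in the 2 LBD genes.

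Of the rises, 162 of 304, and 53 of the 138 falls lie in probe sets that the array annotation does not list, so they carry no gene here. The largest was 262099_s_at, at 12.89, 12.37 and 12.40 on IAA and at 10.96, 7.94 and 7.79 on control medium (3.66 ± 0.491, limma adjusted p = 5.14e-06). Its control replicate 1 was, as in GH3.3, far above the other 23 control arrays of the series, which ran from 7.18 to 9.20. The call was lost with the spread of the 6 arrays alone (0.141), and without control replicate 1 the difference was 4.69 (4.9e-10). The probe set 261766_at was at 9.31, 9.22 and 9.997 on IAA and at 6.33, 6.88 and 6.38 on control medium, a 7.89-fold rise (2.98 ± 0.249, 1.79e-10). The largest falls of this kind were 247600_at (-1.37 ± 0.343, 0.0217) and 256762_at (-1.36 ± 0.293, 0.00489), both lost without IAA replicate 1 (0.14 and 0.0678). 247600_at was also lost without IAA replicate 2 (0.0904), control replicate 2 (0.0788) or control replicate 3 (0.0906). Without replicate 1 in all groups, 247600_at (0.493) and 256762_at (0.429) were lost. With the difference at 0 h subtracted, neither passed (0.272 for 247600_at and 0.433 for 256762_at).

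The number of calls grew over the first times. At 0.5 h 268 probe sets passed (1.18% of all tested, 0.928% higher and 0.251% lower). At 2 h 2094 passed (9.21%, of which 5.44% higher and 3.76% lower), and at 1 h 442. The share of rises among the calls was 78.7% at 0.5 h, 68.8% at 1 h and 59.1% at 2 h. Of the calls at 1 h, 175 were called in the same direction at 0.5 h, which is 39.6% of the 1 h calls and 65.3% of the 0.5 h calls. The overlap with 2 h was 328 probe sets, 74.2% of the 1 h calls and 15.7% of the 2 h calls, and 0 calls had opposite directions in either pair. All 3 times shared 147. The test of the change itself gave little. From 0.5 h to 1 h, 0 probe sets changed their difference between IAA and control (limma adjusted p under 0.05), with 609 at an unadjusted p under 0.05. From 1 h to 2 h, 7 did (0.0308%), 4 upward (0.0176%) and 3 downward (0.0132%), with 1482 at an unadjusted p under 0.05. With the replicate number as a block 15 did. Without replicate 1 in all groups the count was 0, without replicate 2 it was 1 and without replicate 3 it was 20. Of the 7, only AT3G61160 has a named gene. Its difference was 0.34 at 1 h and 1.33 at 2 h, a change of 0.99 ± 0.193 (0.0321).

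**Figure D4:**
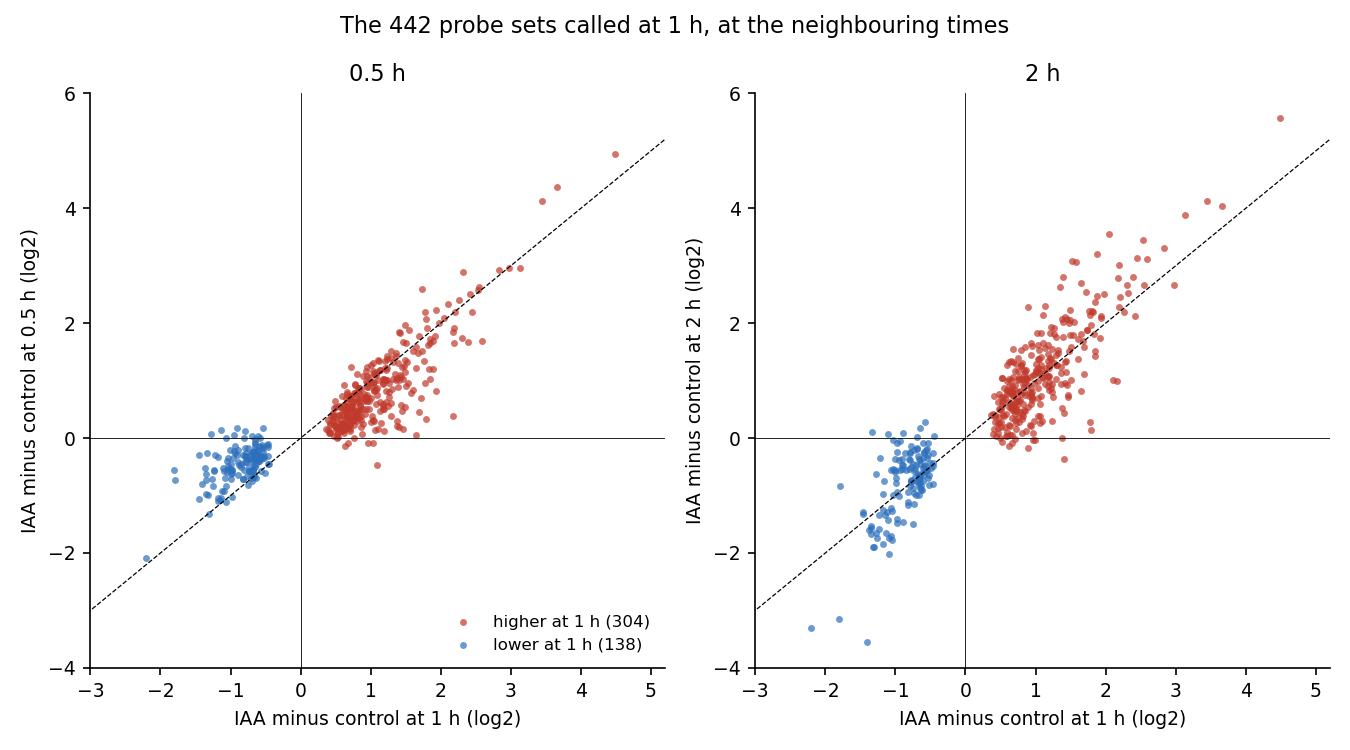
Difference between IAA and control (log2) of the 442 probe sets called at 1 h, with the value at 1 h on the horizontal axes and that at 0.5 h (left) or 2 h (right) on the vertical axes; red points rose and blue points fell at 1 h, and the dashed line marks equal values. The points were chosen at 1 h, and their medians at 0.5, 1 and 2 h were 0.69, 0.96 and 1.00 for the rises and -0.40, -0.79 and -0.65 for the falls.

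Over the whole course, 32 of the 304 rises had their largest difference at 0.5 h, 79 at 1 h, 65 at 2 h, 58 at 4 h, 45 at 8 h, 21 at 12 h and 4 at 24 h. For the 138 falls these counts were 3, 54, 37, 23, 15, 5 and 1. Since the probe sets were chosen at 1 h, the share with their largest value at that time is a description. Single genes followed different courses. GH3.3 stood at 4.94, 4.49, 5.58, 6.10, 6.08, 4.67 and 3.94 from 0.5 h to 24 h, a high level throughout. HAT2 was at 2.33 at 0.5 h, 2.1 at 1 h, 1.01 at 2 h and 0.53 at 4 h. MYBC1 had its largest difference at 1 h (1.47), with 1.03 at 0.5 h and 0.72 at 2 h, and YUC6 its lowest at 1 h (-0.99), with -0.71 at 0.5 h and -0.78 at 2 h. The changes of these genes from 0.5 h to 1 h and from 1 h to 2 h did not pass (adjusted p from 0.217 to 1). SWEET14 and AT5G66815 were not called at 0.5 h (0.07 and -0.56) and were at -1.65 and -3.15 at 2 h. For these genes too, the change from 0.5 h to 1 h did not pass. Nor did that from 1 h to 2 h (limma adjusted p = 0.974 and 0.184).

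A group of 86 probe sets was called at 1 h and neither at 0.5 h nor at 2 h, 39 higher and 47 lower, and 50 of them have a named gene. Among these are CCR2, IAA33, IQD24, SIM, UGT76E2 and, of the locus genes, AT4G33420 and AT4G39190. CCR2 stood at -0.22 at 0.5 h, -0.95 at 1 h and -0.38 at 2 h. IAA33 stood at 0.02, 0.53 and -0.07 at these times. AT4G39190 stood at -0.57, -1.10 and 0.07, with values on IAA of 7.33, 6.81 and 6.72 and on control medium of 8.48, 7.81 and 7.87 at 1 h. With the difference at 0 h subtracted, the calls of IAA33, IQD24, SIM and UGT76E2 were lost as given above, and so were those of AT4G33420 (0.133) and AT4G39190 (0.0965). None of the 86 passed the test of a change from 0.5 h to 1 h or from 1 h to 2 h, so the data do not show that their response differed between these times (adjusted p of at least 0.151 from 1 h to 2 h over the 50 named genes).

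**Figure D5:**
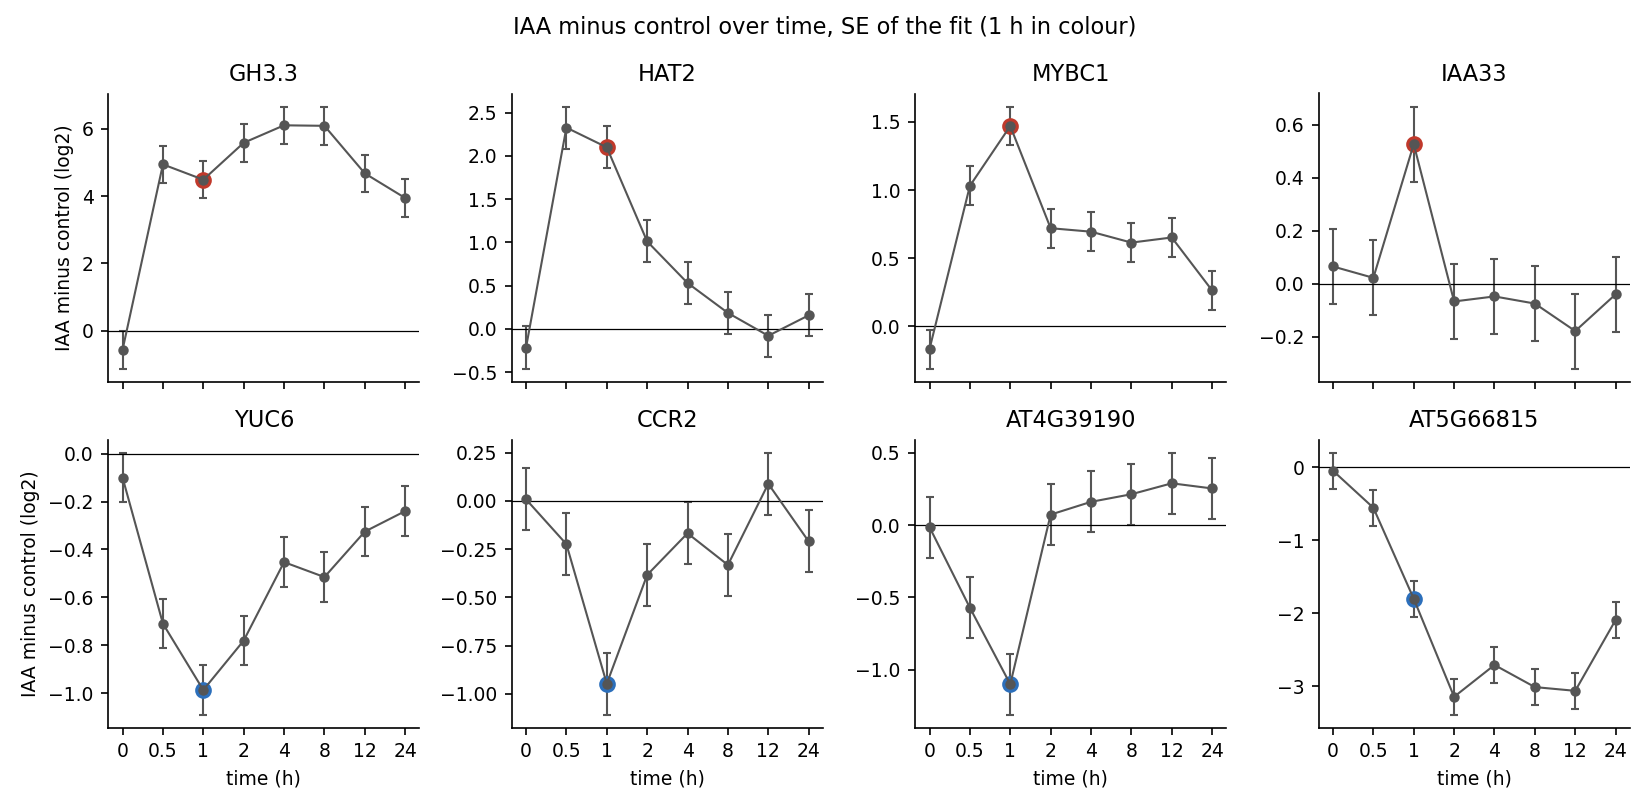
Difference between IAA and control (vertical axes, log2, error bars 1 SE of the fit, n = 3 per group) at 8 times (horizontal axes, h, equal steps) for 4 genes that rose (top) and 4 that fell (bottom) at 1 h, with 1 h in colour. GH3.3 stays high from 0.5 h to 24 h, HAT2 and MYBC1 are lower at 2 h than at 1 h, a change that did not pass its test, and IAA33, CCR2 and AT4G39190 pass the test at 1 h but not at 0.5 h or 2 h.

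The time on fresh medium can be read from the control arrays. The transfer itself cannot, because roots at 0 h had been moved to the medium too. Between control roots at 1 h and at 0 h, 0 of 22746 probe sets passed (limma, with 371 at an unadjusted p under 0.05). The probe sets called at 1 h had a median difference of 0.02 (rises) and -0.01 (falls) between these control groups. Roots on IAA at 1 h differed from roots on IAA at 0 h in 1044 probe sets (4.59%), 590 higher (2.59%) and 454 lower (2.0%), and the medians over the rises and falls were 1.03 and -0.82. These contrasts share arrays with the comparison at 1 h, so they are set side by side and lend it no further support. At 0 h itself, IAA and control differed in 0 probe sets (181 at an unadjusted p under 0.05), and the medians over the 1 h rises and falls were -0.06 and 0.01. AT5G48430, named for having the largest positive difference between control roots at 1 h and at 0 h (1.71, not past the test), was at 12.49, 12.04 and 10.51 on IAA and at 10.41, 9.70 and 10.20 on control medium at 1 h (1.57 ± 0.733, adjusted p = 0.436). AT1G14550 had a difference of 1.25 in the control contrast, also not past the test, and its control arrays at 1 h ran from 7.98 to 10.59.

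The called probe sets were chosen by the test on these same 6 arrays, which largely fixes the direction in each array, so the values by array are a description. Measured from the control mean, the median over the 304 rises was 1.08 in IAA replicate 1, 0.85 in replicate 2 and 0.95 in replicate 3, and over the 138 falls it was -0.84, -0.78 and -0.76. Replicate 1 held the highest of the 3 IAA arrays for 176 of the rises, replicate 2 for 22 and replicate 3 for 106. Within the same replicate number, IAA lay above control in 304, 303 and 304 of the rises and below it in all 138 falls for each number. Without IAA replicate 3, the array farthest from its group mean, 421 probe sets passed, among them 238 of the 304 rises and 90 of the 138 falls. Across every alternative fit of the 1 h difference, 52 probe sets stayed past the test, 48 higher and 4 lower, of which 22 have a named gene. They include LBD29, WES1, IAA29, HAT2, LBD16, MYBC1 and YUC6.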

How the data were processed

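Total root RNA was labelled with biotin by a 3′ in vitro transcription protocol and hybridised to Affymetrix arrays, per the labels' protocols. Deposited were log2 intensities of probe sets, with nearly equal array means. The unit was read from the values, and the method of summary and normalization and the software are not given in the sources used here. No detection calls were used, and 54 values in the table were exactly 0. Arrays have no read depth, so 3 arrays per group limit the precision. No 2 arrays held identical values.

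The 64 control probe sets of the 22810 were left out and the remaining 22746 tested without a filter. A mean for each of 16 groups was fitted to all 48 arrays by lmFit and eBayes of limma 3.58.1 in R 4.3.3 (32 residual degrees of freedom), so the spread is pooled over groups. Tests are two-sided, and within each contrast all p-values were adjusted together (Benjamini-Hochberg) and read at a threshold of 0.05. The procedure was tested on simulated data. A difference carries the fit's standard error, with n = 3 per group.

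Genes come from the array's platform annotation, where 503 probe sets list several genes and stay unnamed, with symbols from the RefSeq table of TAIR10.1, in which 13436 probe sets matched. Where a gene has several probe sets, the brightest on average stands for it. Probe sets whose ID ends in _s_at or _x_at may share probes with other genes. A group mean is called under the lower quartile where it lies below 6.29, the highest of the lower quartiles of the 1 h arrays (the lowest was 6.11).

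The members, lists and tests were chosen with earlier results of these data known. The rule named GH3.3 and LBD29, the 15 largest rises and falls with groups that did not overlap, up to 4 called members of each list (or 1 with the largest change), the largest changes between neighbouring times and in control roots, and some probe sets without a gene. Other called genes with a symbol were added after their values were seen. The symbol patterns for bZIP and NAC genes were corrected to ignore case after the table was read. Gibberellin and brassinosteroid metabolism and nitrate response had 0 measured members. A description of promoter motifs was planned and not run, because no promoter sequences were used here.

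Control and IAA arrays of the same replicate number deviated together at 1 h (correlations of deviations from group means of 0.448, 0.278 and 0.483, 3 of 3 over 0.1; 20 of 24 over all times). The labels do not say what the number marks, so a fit with it as a block stands beside the unblocked one. Other alternatives were quantile normalization, centring on medians, a filter on low values, an intensity trend with robust estimation, the 6 arrays of 1 h alone, subtraction of the 0 h difference, a fold of at least 2 in addition, the probe set with the lowest p, and leaving out arrays. The 0 h subtraction brings in the arrays of 0 h as well, so its SE is larger than that of the 1 h difference.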

Additional observations from a re-analysis of the deposited data

Results flagged for a closer look

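The difference between IAA and control changed from 1 h to 2 h in 7 probe sets by the interaction test (limma adjusted p under 0.05). The one with a named gene was AT3G61160, with a change of 0.99 log2 units. Relative to the difference at 0 h, that at 1 h passed in 156 probe sets, 131 higher and 25 lower.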

How the results depend on the processing

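The 442 calls at 1 h were 466 after quantile normalization, 456 with arrays centred on their medians, 483 after a filter on low values, 438 with an intensity trend and robust estimation and 629 with the replicate block, which kept all 442. They were 87 with the spread of the 6 arrays of 1 h alone, 90 with these arrays and the replicate block, 156 with the 0 h difference subtracted and 186 with a fold of at least 2 in addition. Leaving out 1 array of 1 h, or a replicate number in all groups, gave 93 to 511, and 641 passed when the 4 most deviant arrays were dropped. The last setting and the 6 arrays with the block were chosen after seeing the data. Rises made up 60.1% to 91.4% of the calls when arrays were left out, 88.5% with the 6 arrays alone, 86.7% with these and the block, 84.0% with the 0 h difference subtracted and 78.5% with the fold, against 68.8%. The change from 0.5 h to 1 h gave 0 to 4 calls when replicate numbers were left out and 0 otherwise. The change from 1 h to 2 h gave 7, with 11 after centring on medians, 15 with the replicate block, 0 to 20 without a replicate number and 58 without the 4 most deviant arrays. The control contrast from 0 h to 1 h gave 0 under every alternative run. The lists held 18 calls, and 17 to 23 under their alternatives. Of 61 named calls, 15 were kept under every alternative run on single genes and 0 changed sign. The replicate block ended 0 of them, the 6 arrays alone ended 40 and the 0 h subtraction 31. Leaving out replicate 1, 2 or 3 in all groups ended 38, 18 and 15. Some alternatives use fewer samples or a stricter rule, and the causes of the different counts were not tested. With 3 arrays per group, dim probe sets were seldom called, in 0.229% of the dimmest of 4 equal classes.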

Other observations

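Among probe sets with a fold of at least 2 at 1 h whether called or not, 189 were higher on IAA and 120 lower, and 77.2% of the higher and 33.3% of the lower ones were called. The median SE was 0.269 for the higher and 0.426 for the lower ones. For the higher ones the median SD was 0.35 in the IAA arrays and 0.287 in the control arrays, and for the lower ones 0.434 in the IAA arrays and 0.622 in the control arrays. The largest uncalled difference was AT2G41730, at -2.78 ± 0.832 (limma adjusted p = 0.0788).

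Of 5814 pairs of named genes that lie next to each other on a chromosome, 7 had both members called, and in all 7 both moved the same way. Over all named genes 1.64% were called, and no share was computed for pairs that are not neighbours, so the count is a description. They include IAA30 with AT3G62110 (1.46 and 0.65), AT4G35200 with AT4G35210 (1.42 and 1.65), AT2G47550 with AT2G47560 (1.36 and 1.30) and, among the falls, AT5G07860 with AT5G07870 (-0.69 and -0.90). The 69 measured plastid genes had 0 calls and a median of -0.033.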
